A study of Mus musculus with 675 samples.

Results

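The Hox genes were examined in single cells of the mouse aorta, by number of cells with a count, by paralog group and by which members were met in the same cell. The members were 38 Hox genes, taken as the rows of the count table whose identifiers carry these gene names in the annotation of GRCm38. The table has 46517 gene identifiers. A count was recorded in at least 1 cell for 28 of the 38, and the other 10 had none.

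Expression was measured by Smart-seq2, a plate method that amplifies full-length cDNA of sorted single cells, in 675 cells from male C57BL/6 mice of 10 weeks with the tissue label aorta. The cells form 2 pools, A and B, each from 2 mice on a plate of its own. No treatment or genotype differs between them, so the pool is the replicate (n = 2) and the mice and the plate of a pool are 1 factor. Segment of origin and sort gate are not stated in the labels, and the protocol describes dissociation of the heart.

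Hox genes encode transcription factors that bind DNA through a homeodomain and give cells their address along the head-to-tail axis. They lie in clusters named A to D, and members with the same number are paralogs that arose by duplication of the cluster. Low numbered genes at the 3′ end of a cluster are used from the hindbrain and upper trunk downwards, and higher numbered genes only further towards the tail. Vessels along the body are known to keep such differences into adult life, among smooth muscle, fibroblasts and endothelium.

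The members sit on chromosome 6 (cluster A, GRCm38 chr6:52162417-52260880), chromosome 11 (cluster B, chr11:96194316-96368256), chromosome 15 (cluster C, chr15:102921103-103036852) and chromosome 2 (cluster D, chr2:74668310-74765142). Paralogs resemble each other most in the homeobox, the part of the coding sequence that encodes the homeodomain, so reads from it are the hardest to assign to 1 gene. Over the 60 codons of the homeobox the 40 paralog pairs had a median identity of 80.6%, against 60.6% for the other pairs. The 51 bases of the third, DNA-contacting helix are shown for 7 of the 11 members with a count in 5% or more of the SMC-like (smooth muscle-like) or fibroblast-like cells of both pools, from the GENCODE M21 transcripts, 5′ to 3′ on the coding strand, with GRCm38 positions. They are exonic and coding. Lower case marks the 28 bases that all 7 share and capitals the bases at which at least 1 of them differs.
Hoxa2 (chr6:52163417-52163467, minus strand): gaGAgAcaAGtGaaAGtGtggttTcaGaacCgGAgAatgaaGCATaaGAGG
Hoxa4 (chr6:52190489-52190539, minus strand): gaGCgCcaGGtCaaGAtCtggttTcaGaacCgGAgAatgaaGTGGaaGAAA
Hoxa5 (chr6:52202638-52202688, minus strand): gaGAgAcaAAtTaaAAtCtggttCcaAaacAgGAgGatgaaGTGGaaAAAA
Hoxb2 (chr11:96353108-96353158, plus strand): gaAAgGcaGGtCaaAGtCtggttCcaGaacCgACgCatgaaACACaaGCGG
Hoxb6 (chr11:96300812-96300862, plus strand): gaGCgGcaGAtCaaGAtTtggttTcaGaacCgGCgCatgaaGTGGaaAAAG
Hoxb7 (chr11:96289508-96289558, plus strand): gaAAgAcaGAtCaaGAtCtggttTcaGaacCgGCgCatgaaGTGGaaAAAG
Hoxc4 (chr15:103035786-103035836, plus strand): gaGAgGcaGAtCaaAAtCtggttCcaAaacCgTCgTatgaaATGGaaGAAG
Hoxb6 and Hoxb7, neighbours in cluster B, differed at 4 of these 51 bases and had 88.9% identity over the homeobox, and Hoxa3 and Hoxb3 had 93.9% identity over it. Over the whole of the longest coding transcripts of these 11 members, homeobox included, the longest exact stretch shared by 2 was 37 bases, between Hoxb6 and Hoxb7, and it was 33 bases for Hoxa3 and Hoxb3. Over all 703 pairs of members, 2 pairs shared a stretch of 50 bases or more, Hoxa6 with Hoxb4 (52 bases) and Hoxb9 with Hoxc9 (50 bases). The labels state neither the read length nor the treatment of reads with several matches.

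Cells were grouped without the Hox genes. Clusters formed on other genes and named from marker genes gave 544 smooth muscle-like (SMC-like) cells (290 of them from pool A), 69 fibroblast-like cells (43 and 26) and 21 endothelial-like cells (14 and 7). A further cluster of 41 cells (20 and 21) was left unnamed, because markers of cardiomyocytes and Schwann cells were among its leading genes beside smooth muscle markers. A cell held between 51886 and 713700 counts. The median was 292448 and 327822 counts in the SMC-like class (pool A, then pool B), 161521 and 145346 in fibroblast-like cells, and 240336 and 192763 in endothelial-like cells. Since depth differs between classes, shares of cells are also given with every cell thinned to 50000 counts. Intervals are exact Clopper-Pearson intervals at 95%, and they cover counting error only. Smart-seq2 reads carry no molecular identifiers, so counts are not molecules.

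Most SMC-like cells held Hox counts. A SMC-like cell had a count of 3.25 members on average in pool A and 3.14 in pool B, with a median of 3 in both and a highest of 10 and 9. No member was found in 3.79% of these cells in pool A (11 cells, 1.91 to 6.69%) and in 3.15% in pool B (8 cells, 1.37 to 6.11%). That share was 11.7% and 12.2% after thinning, and 15.2% and 17.7% had no member with 5 or more counts. The Hox clusters were used very unequally. Cluster B held 63.1% and 64.99% of all Hox counts of SMC-like cells in pools A and B, and cluster A 36.3% and 34.4%. Cluster C gave 0.401% and 0.318% and cluster D 0.198% and 0.336%.

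**Figure D1:**
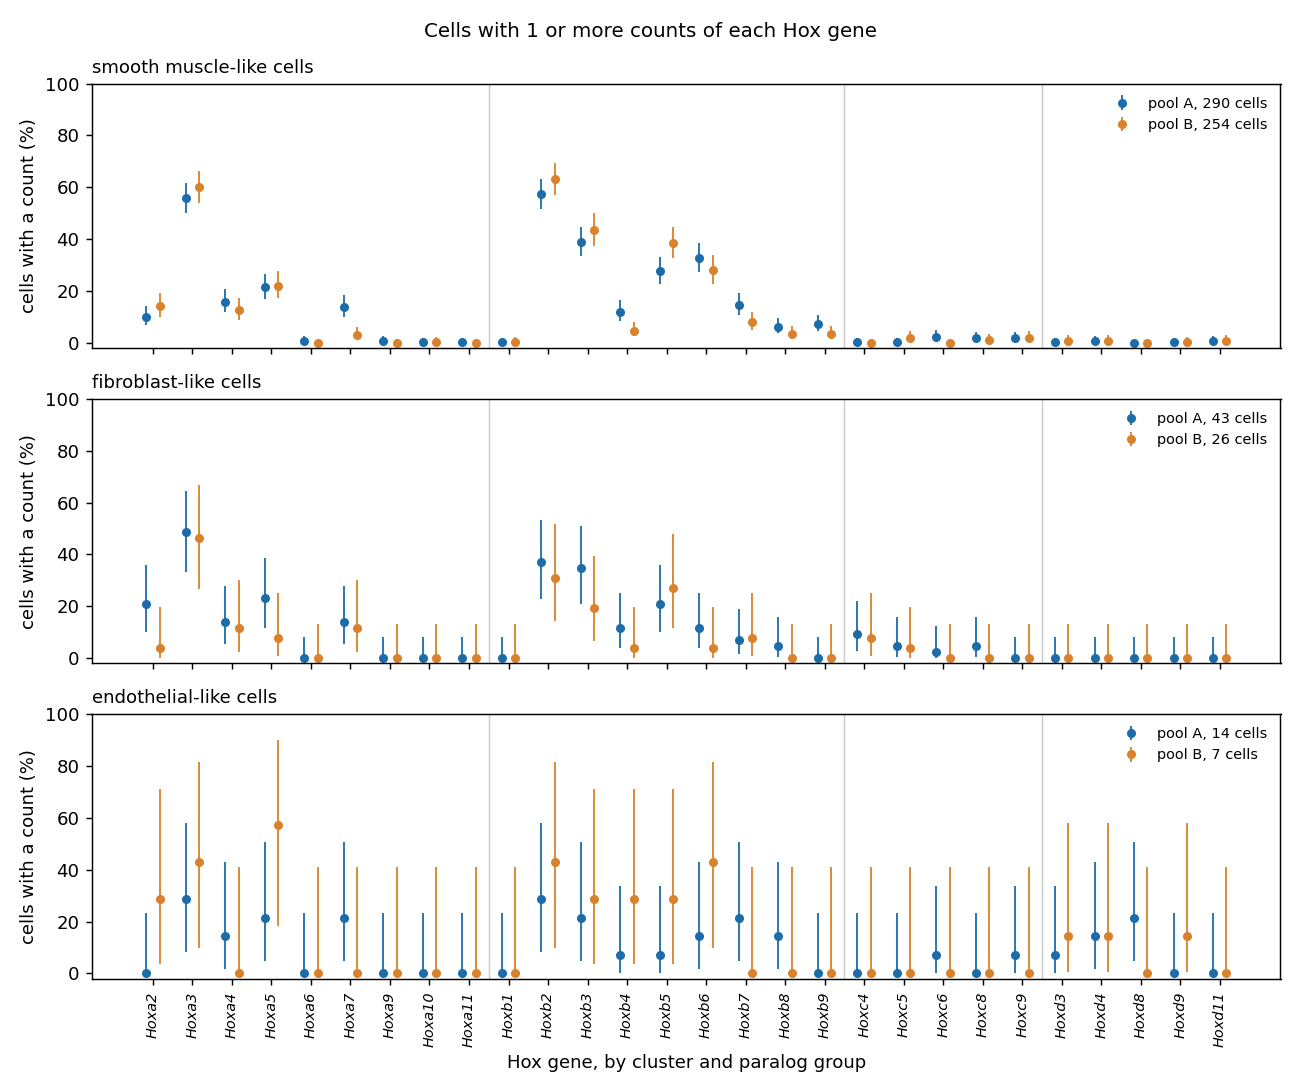
Percent of cells with 1 or more counts (y axis) of each of the 28 Hox genes with any count (x axis, by cluster and number), in SMC-like, fibroblast-like and endothelial-like cells. Points are the 2 pools and lines exact 95% intervals for counting error; in SMC-like cells Hoxa3 and Hoxb2 stand at 55.9 to 63.4%, and every member of clusters C and D is under 3%.

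Among the low numbered groups, Hoxb2, a gene of hindbrain and pharyngeal patterning, was found in the largest share of SMC-like cells. It had a count in 57.6% in pool A (51.7 to 63.3%) and 63.4% in pool B (57.1 to 69.3%), and its level in the summed cells was 66.4 and 59.7 CPM (counts scaled to library size). The pools differed little beside the counting intervals, which overlap. Hoxa2, its paralog and the main patterning gene of the second pharyngeal arch, was far rarer: 10.0% in pool A (6.80 to 14.05%) and 14.2% in pool B (10.1 to 19.1%).

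Hoxa3, needed for the thymus, parathyroid and carotid structures of the third arch, was as widespread as Hoxb2. A count was found in 55.9% of SMC-like cells of pool A (49.9 to 61.7%) and 60.2% of pool B (53.9 to 66.3%), at 52.1 and 38.96 CPM. Its paralog Hoxb3 had a count in 38.97% and 43.7%, at 15.4 and 17.1 CPM. Both overlap other annotated genes: 27.1% of the exonic bases of Hoxa3 and 52.9% of those of Hoxb3 also belong to another gene, for Hoxb3 the antisense gene Hoxb3os. Hoxb2 shares 27.3% of its exonic bases with Hoxb3os too. The labels do not state whether counting used the strand, so reads of overlapping genes cannot be told apart.

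Group 4 was thinly represented. Hoxa4 had a count in 15.9% of SMC-like cells in pool A and 12.6% in pool B. Hoxb4 had one in 12.1% (8.55 to 16.4%) and 4.72% (2.46 to 8.11%). For Hoxb4 the pools' intervals do not overlap. In cluster B the row of members was thus broken: Hoxb4 was rarer than Hoxb3 on its 3′ side and than Hoxb5 on its 5′ side in both pools.

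Groups 5 to 7, used from the lower neck and chest downwards in the embryo, were met in shares that differed between members and pools. Hoxb5 had a count in 27.6% of SMC-like cells of pool A and 38.6% of pool B, with nearly the same summed level, 29.6 and 29.99 CPM. Hoxb6 had a count in 32.8% and 27.95%, and its summed level was 47.9 CPM in pool A and 15.9 CPM in pool B. The gap in level was larger than the gap in cells, since cells with Hoxb6 had a median of 27 counts of it in pool A and 3 in pool B. Hoxa5, known for its part in lung and rib patterning, had a count in 21.4% and 22.05%, at 17.2 and 11.3 CPM.

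Hoxa7 and Hoxb7, the paralogs of group 7, were both more frequent in pool A. Hoxa7 had a count in 13.8% of SMC-like cells of pool A (10.0 to 18.3%) and 3.15% of pool B (1.37 to 6.11%), at 17.1 and 2.54 CPM. Hoxb7 had a count in 14.5% (10.6 to 19.1%) and 7.87% (4.88 to 11.9%). Thinned to equal depth, Hoxa7 was found in 10.0% and 1.57% and Hoxb7 in 10.3% and 3.94%, so the direction held although pool B was the deeper pool. With 1 plate per pool a test of this difference has no replicates, and mice and plate cannot be told apart.

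Hoxb8 ended the well supported row of cluster B, with a count in 6.21% and 3.54% of SMC-like cells. Hoxb9 had a count in 7.24% and 3.54%, but never more than 2 counts in a cell of this class. Hoxb1, the most 3′ member of cluster B, was met in 2 cells with 1 count each. In cluster A, Hoxa6 had counts in 2 cells of all classes, Hoxa9 and Hoxa10 in 3 each and Hoxa11 in 1. A single cell held 98.2% of the counts of Hoxa10.

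The 10 members without any count were Hoxa13, Hoxb13, Hoxc10, Hoxc11, Hoxc12, Hoxc13, Hoxd1, Hoxd10, Hoxd12 and Hoxd13. All but Hoxd1 belong to groups 10 to 13, which act in the embryo's hind trunk, limbs and genital region. For a member without a count, the exact interval allows a share of up to 1.26% of the SMC-like cells of pool A and 1.44% of those of pool B with a count.

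Many detections rested on few counts. Of the SMC-like cells with Hoxb2, 22.2% in pool A and 30.4% in pool B had only 1 or 2 counts, and for Hoxb5 it was 32.5% and 53.1%. At 5 or more counts, Hoxb2 was found in 42.1% and 42.9% of SMC-like cells, Hoxa3 in 37.9% and 44.5%, Hoxb5 in 16.6% and 16.9%, and Hoxb6 in 22.1% and 13.8%.

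**Figure D2:**
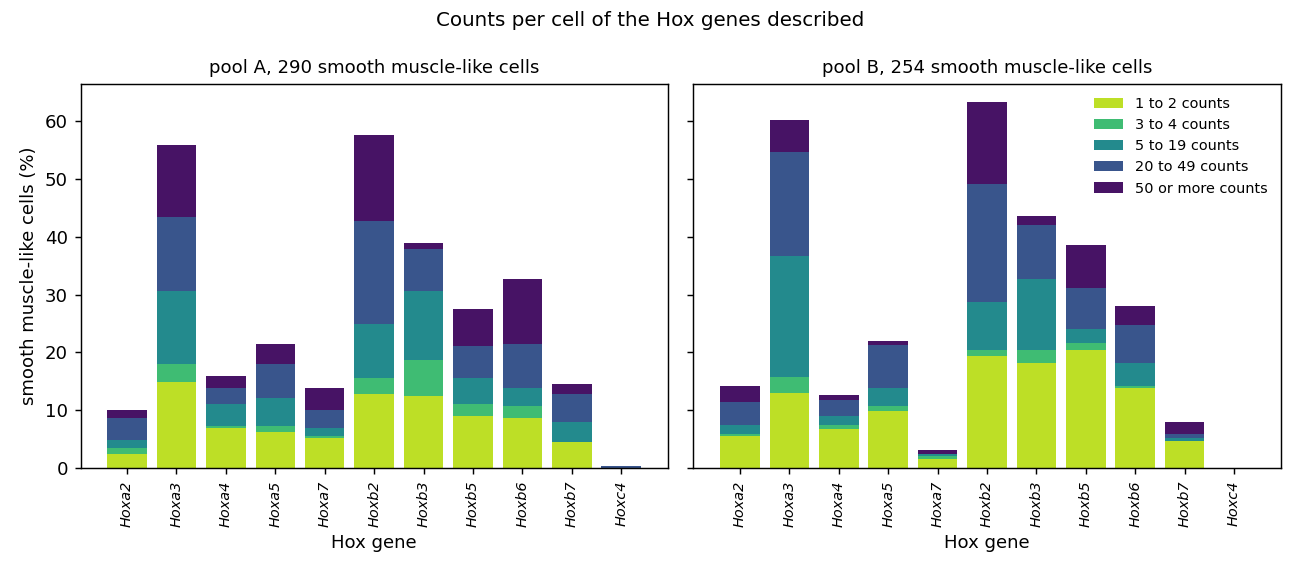
Percent of SMC-like cells (y axis) by number of counts per cell (colours) for the 11 Hox genes found in 5% or more of SMC-like or fibroblast-like cells in both pools (x axis), in pool A and pool B. The bar height is the share of cells with any count; Hoxb2 reaches 57.6% and 63.4%, and Hoxa7 is higher in pool A (13.8%) than in pool B (3.15%).

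Set against transcript length, the order of levels changed. In CPM per kilobase of exon, Hoxb2 stood at 18.1 ± 1.35 (SD, n = 2 pools) in SMC-like cells, Hoxb6 at 16.3 ± 11.5 and Hoxb5 at 10.7 ± 0.103. Hoxa5 followed with 7.60 ± 2.22, Hoxa3 with 7.57 ± 1.55, Hoxb7 with 5.76 ± 3.004, Hoxa2 with 5.22 ± 1.15, Hoxa4 with 4.97 ± 1.98, Hoxb3 with 3.82 ± 0.287 and Hoxa7 with 3.41 ± 3.57. Hoxb2 was above Hoxb5 by more than the spread between pools. Neighbours from Hoxa5 down to Hoxa7 did not differ beyond it, and Hoxb6 with its wide spread could not be placed against Hoxb2 or Hoxb5. Hoxa3, found in many cells, ranks lower here because its exons are long, 6014 bases.

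Summed over paralogs, group 3 was met in the largest share of SMC-like cells and group 2 followed. Group 3 had a count in 72.1% in pool A and 74.02% in pool B, and group 2 in 61.4% and 68.1%. Group 4 fell to 27.9% and 17.3%, then group 5 reached 42.1% and 51.6%. From there the share declined with the group number: 34.1% and 27.95% for group 6, 24.8% and 9.84% for group 7, 7.59% and 4.72% for group 8. Group 9 was met in 10.0% and 5.91%, nearly all of it with under 5 counts. Groups 12 and 13 were met in 0 SMC-like cells.

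The highest numbered group with a count gives each cell its most tailward Hox gene. In SMC-like cells it was group 1 to 3 in 19.7% of pool A and 25.6% of pool B, group 5 to 6 in 34.1% and 46.1%, and group 7 to 8 in 24.1% and 13.4%. A highest group of 5 or above was found in 69.7% of cells of pool A (64.01 to 74.9%) and 66.5% of pool B (60.4 to 72.3%), and these intervals overlap. The share depended on the counts asked for. At 5 or more counts it was 48.97% and 30.7%, and with cells thinned to 50000 counts 52.8% and 39.8%, pool A being higher by both. With 5 or more counts, groups 9 to 13 almost disappeared, to 0.690% and 0%.

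**Figure D3:**
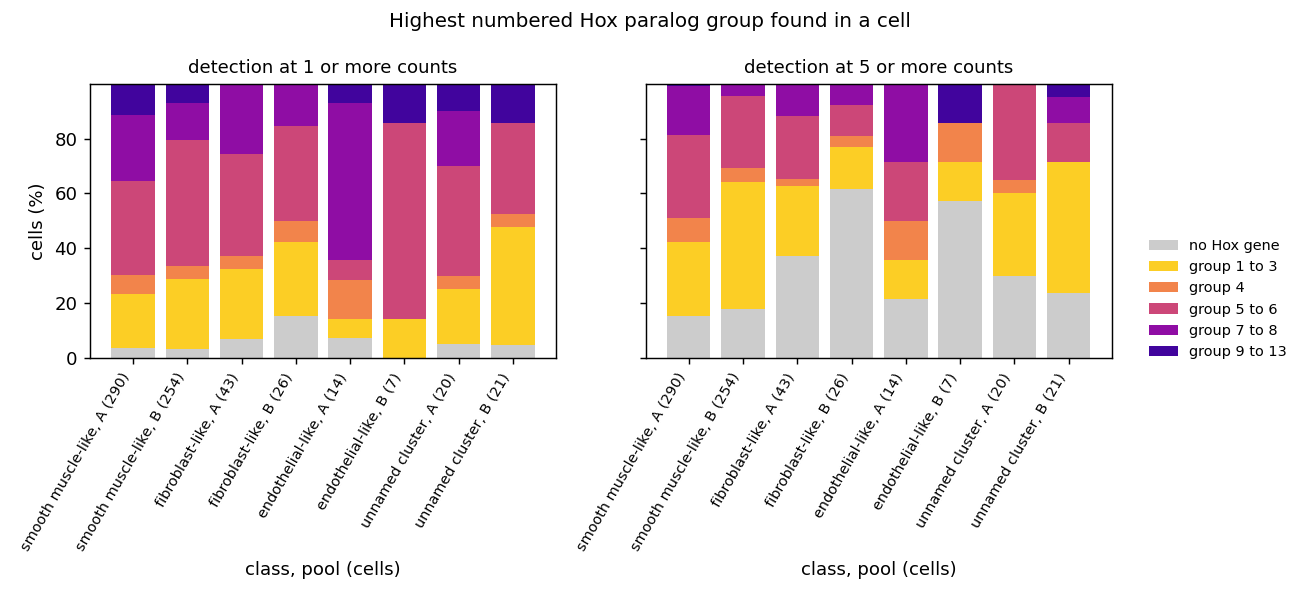
Percent of cells (y axis) by the highest numbered Hox paralog group found in the cell (colours), for each class and pool (x axis, cells in brackets), with 1 or more counts (left) and 5 or more counts (right) as detection. Smooth muscle-like cells with a highest group of 5 or above go from 69.7% and 66.5% in pools A and B on the left to 48.97% and 30.7% on the right.

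Fibroblast-like cells, which make the collagenous matrix of the vessel's outer layer, also held members of the low groups. Hoxa3 had a count in 48.8% of them in pool A (33.3 to 64.5%) and 46.2% in pool B (26.6 to 66.6%), and Hoxb2 in 37.2% and 30.8%, against 57.6% and 63.4% of SMC-like cells. Group 2 after thinning was met in 30.2% and 19.2% of fibroblast-like and 48.3% and 51.6% of SMC-like cells. Hoxb6 was rarer than in SMC-like cells, with 11.6% (3.89 to 25.1%) and 3.85% (0.0973 to 19.6%) against 32.8% and 27.95%. Thinned to equal depth Hoxb6 was at 6.98% and 3.85% in fibroblast-like and 24.8% and 16.5% in SMC-like cells. No fibroblast-like cell had a member above group 8, which in 43 and 26 cells allows up to 8.22% and 13.2%.

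Cluster C made up a larger part of the Hox counts in these fibroblast-like cells than in SMC-like cells. It gave 14.2% of their Hox counts in pool A and 22.6% in pool B, against under 1% in SMC-like cells, but few cells carried it. In pool A 7 of 43 cells had a count of a member of cluster C, and 1 cell held 64.7% of these counts. In pool B 2 of 26 cells had one, and 1 cell held 60.4%. By cells the classes were closer, at 16.3% (6.81 to 30.7%) and 7.69% (0.946 to 25.1%) of fibroblast-like cells. In SMC-like cells it was 6.21% (3.72 to 9.63%) and 5.12% (2.75 to 8.59%), and the intervals overlap in both pools. Of the endothelial-like cells, 2 of 14 in pool A had a count of cluster C, with 4.89% of their Hox counts, and 0 of 7 in pool B. Hoxc4 stood at 13.95 CPM in 4 fibroblast-like cells of pool A and at 49.9 CPM in 2 cells of pool B. In SMC-like cells it had 25 counts, all in 1 cell of pool A, and 0 counts in pool B. The level of Hoxc5 in fibroblast-like cells was 13.8 and 6.20 CPM, from 2 cells and 1 cell, and at 0.222 and 0.546 CPM in SMC-like cells. Each of these levels came from few cells.

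Endothelial-like cells were few. Their leading genes were Gpihbp1, Cd36 and Cd300lg, and whether they came from the lining of the aorta or from smaller vessels was not tested. Members of cluster D had a count in 5 of 14 of them in pool A (35.7%, 12.8 to 64.9%) and 2 of 7 in pool B (28.6%, 3.67 to 70.96%). The share was 1.72% and 1.97% in SMC-like cells, and no fibroblast-like cell had one. In the unnamed cluster 4 of 20 cells of pool A (5.73 to 43.7%) and 2 of 21 of pool B (1.17 to 30.4%) had one. These intervals overlap those of the endothelial-like cells. Cluster D made up 23.6% and 27.6% of the Hox counts of endothelial-like cells and 7.69% and 0.176% of those of the unnamed cluster. In endothelial-like cells its members differed between cells and pools. Hoxd4 stood at 41.2 CPM from 2 cells of pool A and 4.18 CPM from 1 cell of pool B. Of its exonic bases 52.3% also belong to Hoxd3, Hoxd3os1 or Gm28230. Hoxd8 stood at 48.4 CPM from 3 cells of pool A and had 0 counts in pool B. Hoxd9 had 0 counts in pool A and 43 in 1 cell of pool B. Hoxa5 was found in 3 of 14 and 4 of 7 endothelial-like cells.

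**Figure D4:**
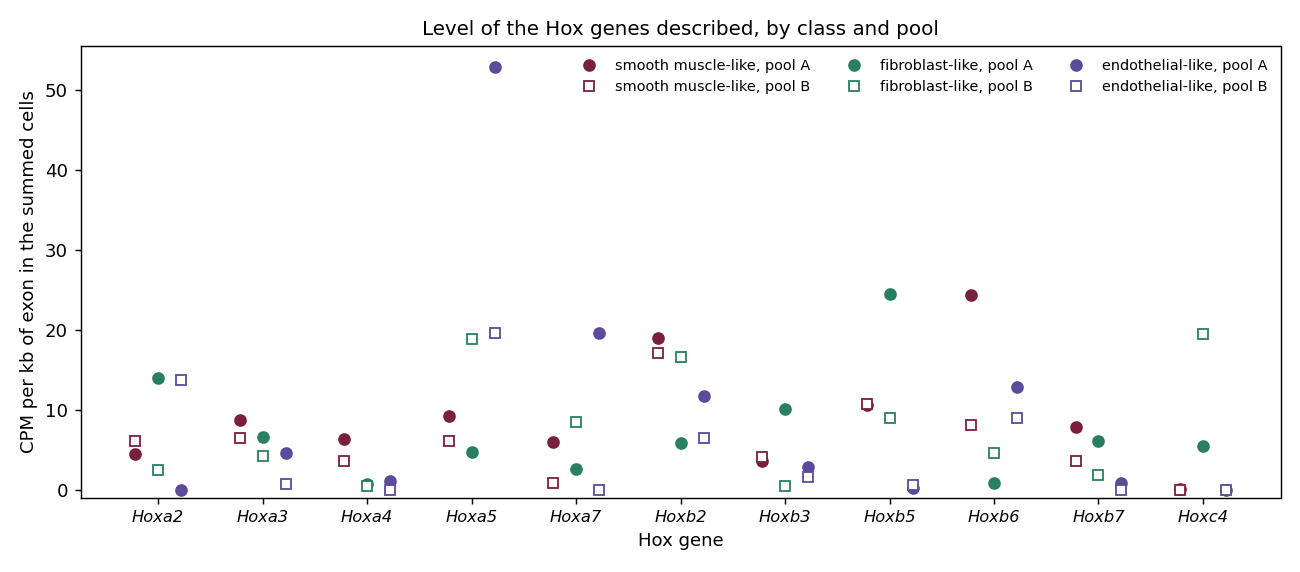
Level of the 11 Hox genes found in 5% or more of SMC-like or fibroblast-like cells in both pools, in CPM per kilobase of exon in the summed cells (y axis, linear), by class (colour) and pool (filled circle pool A, open square pool B). Hoxb2 in SMC-like cells lies at 19.03 and 17.1, Hoxa5 in endothelial-like cells at 52.9 and 19.6, and Hoxc4 is near 0 outside fibroblast-like cells.

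Whether the classes differed in Hox level was tested on counts summed per class and pool with edgeR's quasi-likelihood test, the pool as a block, and Benjamini-Hochberg adjustment over all genes tested. Genes that had formed the clusters were left out of the tests. Between SMC-like and fibroblast-like cells 4.22% of 8500 genes were called, and 0 of the 16 Hox members that passed the filter on low counts. Unadjusted, 2 of the 16 (12.5%) had p under 0.05, Hoxc4 and Hoxc5, beside 17.9% of all genes tested. For Hoxc4 the log2 fold change, SMC-like over fibroblast-like, was -8.54 ± 2.50 (SE) with an adjusted p of 0.163 in edgeR, and for Hoxc5 -4.81 ± 1.73 with 0.245. Over the 16 members the median log2 fold change was 0.07, beside 0.23 over all genes tested.

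DESeq2 on the same sums called 1189 of 8500 genes (14%) and 3 of the 16 members. Hoxc4 was lower in SMC-like cells by this test (log2 fold change -8.89, adjusted p = 4.92e-11), as was Hoxc5 (-4.88, adjusted p = 0.00406). Hoxc4 had a count in only 6 fibroblast-like cells and 1 SMC-like cell, and Hoxc5 in 3 and 6. Both DESeq2 calls thus rest on few cells. Hoxb6 was higher in SMC-like cells by DESeq2 (2.69, adjusted p = 0.0422). In edgeR Hoxb6 had 2.74 ± 1.48 with an adjusted p of 0.397, so the call rests on the tool. Within pool A alone the value was 4.84 and within pool B 0.70. Without the filter on low counts edgeR called Hoxc4 as well (adjusted p = 0.00140). At the coarser clustering the edgeR values of Hoxc4 and Hoxc5 turned to 2.13 and 8.83. At the finer clustering Hoxc4 was at -0.14 (edgeR, adjusted p = 0.987). At the clustering used here it was at -5.45 within pool A alone and -10.22 within pool B. The coarser clustering had 44 fibroblast-like cells in pool A and 26 in pool B, but not all were the cells of the classes used here.

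Between SMC-like and endothelial-like cells edgeR called 584 of 8178 genes (7.14%) and 0 of 14 members, with 1 member, Hoxb5, at an unadjusted p under 0.05, beside 16.5% of all genes tested. Hoxb5 had a count in 27.6% and 38.6% of SMC-like cells, at 29.6 and 29.99 CPM, and in 1 of 14 and 2 of 7 endothelial-like cells (7.14% and 28.6%), at 0.649 and 1.67 CPM. In pool B the shares of cells were thus close, while the levels were not. Its log2 fold change was 4.79 ± 2.39 (edgeR, adjusted p = 0.289). DESeq2 called 989 genes (12.1%) and 2 members, Hoxb5 higher in SMC-like cells (4.59, adjusted p = 0.0164) and Hoxd4 lower (-4.91, adjusted p = 0.00695). Hoxd4 had a count in only 3 endothelial-like and 4 SMC-like cells, so its call rests on few cells. The median over the 14 members was 0.90 in edgeR, the same as the 0.90 over all genes tested.

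Between fibroblast-like and endothelial-like cells edgeR called 3.02% of 5790 genes and 0 of 15 members. Of the 15, Hoxc4, Hoxc5 and Hoxd4 had an unadjusted p under 0.05, beside 15.8% of all genes tested. DESeq2 called 759 genes (13.1%) and 3 members: Hoxb5 and Hoxc4 higher in fibroblast-like cells (adjusted p = 0.0236 and 0.0125) and Hoxd4 lower (adjusted p = 0.0126). Hoxc4 had 0 counts in endothelial-like cells and Hoxd4 0 in fibroblast-like cells, so their fitted fold changes are not given. Their counts came from few cells, 6 fibroblast-like cells for Hoxc4 and 3 endothelial-like cells for Hoxd4. These comparisons share the same class sums and are not independent of each other.

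Transcripts listed as markers of other cell types had counts in each class. In SMC-like cells the summed level of the 8 smooth muscle markers was 21547 and 19207 CPM (pool A, then B). It was 4096 and 5002 in fibroblast-like cells, where fibroblast markers lead, and 2283 and 3416 in endothelial-like cells. The 7 fibroblast markers summed to 1848 and 2103 CPM in endothelial-like cells, against 16443 and 14388 in fibroblast-like cells. In endothelial-like cells only 1 of the 7 reached 100 CPM in both pools, and none was at 0 in both. In fibroblast-like cells all 7 reached it. Of the 8 smooth muscle markers, 7 reached 100 CPM in both pools in fibroblast-like cells and 5 in endothelial-like cells. The 8 endothelial markers summed to 6484 and 4323 CPM in endothelial-like cells, where 6 of them reached 100 CPM in both pools. The part of such transcripts in the Hox counts was not tested.

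The 2 SMC-like clusters differed in pool makeup, and no gene passed the edgeR test between them. Cluster 0 had 85 cells from pool A and cluster 1 had 38 from pool B, so that most of each came from the other pool. edgeR called 0 of 8135 genes (0%) between them, and 0 of 15 members, none of which had an unadjusted p under 0.05, while 4.19% of all genes did. DESeq2 called 5 genes (0.0615%) and none of the members. Group 7 was met in 18.8% and 8.33% of cluster 0 (pool A, then pool B) and in 27.3% and 18.4% of cluster 1. After thinning it was 10.6% (4.96 to 19.2%) and 3.24% (1.31 to 6.56%) in cluster 0 and 20.98% (15.6 to 27.2%) and 10.5% (2.94 to 24.8%) in cluster 1, higher in cluster 1 in both pools with overlapping intervals. A highest group of 5 or above was found in 67.1% and 64.8% of cluster 0 in pools A and B, and in 70.7% and 76.3% of cluster 1.

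The unnamed cluster had Hox genes of the low groups as SMC-like cells did, with Hoxb2 in 11 of 20 and 15 of 21 of its cells and Hoxa3 in 9 of 20 and 14 of 21. Group 7 was met in 2 of 20 cells of pool A (10.0%, 1.23 to 31.7%) and 0 of 21 of pool B (0 to 16.1%). These intervals include the shares in SMC-like cells, 24.8% and 9.84%. Hoxa7 and Hoxb7 had 1 count in 1 cell of pool A each, and 0 in pool B. This comparison was added after the values were seen. edgeR called 0 of 8345 genes (0%), of which 7.60% had an unadjusted p under 0.05, and 0 of 16 members, with unadjusted p under 0.05 for Hoxa7 and Hoxb7. DESeq2 called 373 genes (4.47%) and Hoxa7, lower in the unnamed cluster (-6.25, adjusted p = 0.0491). The cluster's 6 cardiomyocyte markers summed to 77.5 and 1099 CPM in pools A and B and its 5 Schwann cell markers to 456 and 4.52 CPM. Their part in the Hox values was not tested.

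Neighbouring genes of a cluster were compared cell by cell, as the share of SMC-like cells with a gene among cells with and without its neighbour. This used the 8 members found in at least 10% of SMC-like cells in both pools, which form 28 pairs. Each pair is read in both directions (56 ordered pairs), which always share their sign. The share was higher with the partner in both pools for 16 of the 28, lower in both for 1, and of opposite sign in the pools for 11. The excess was small. Its median was 5.87 percentage points in pool A and 4.47 in pool B over the 10 ordered pairs of neighbours, 8.78 and 5.94 over the 14 of the same cluster that are not neighbours, 4.58 and 6.71 over the 6 of paralogs, and 4.43 and 4.39 over the 26 others. Neighbours did not stand above more distant pairs of their cluster in either pool by this count. With cells thinned to 50000 counts the order of neighbours and more distant pairs turned. The median was 1.69 and 2.10 points over neighbours and 0.43 and -2.01 over the other pairs of a cluster. It was 4.77 and -0.985 over paralogs and -2.39 and 3.19 over the 26 others. With 2 or more counts asked for, neighbours stayed below the other pairs of a cluster (4.90 against 7.44 and 2.12 against 4.54). With 5 or more they were below in pool A (0.92 against 1.81) and above in pool B (3.21 against 2.42).

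**Figure D5:**
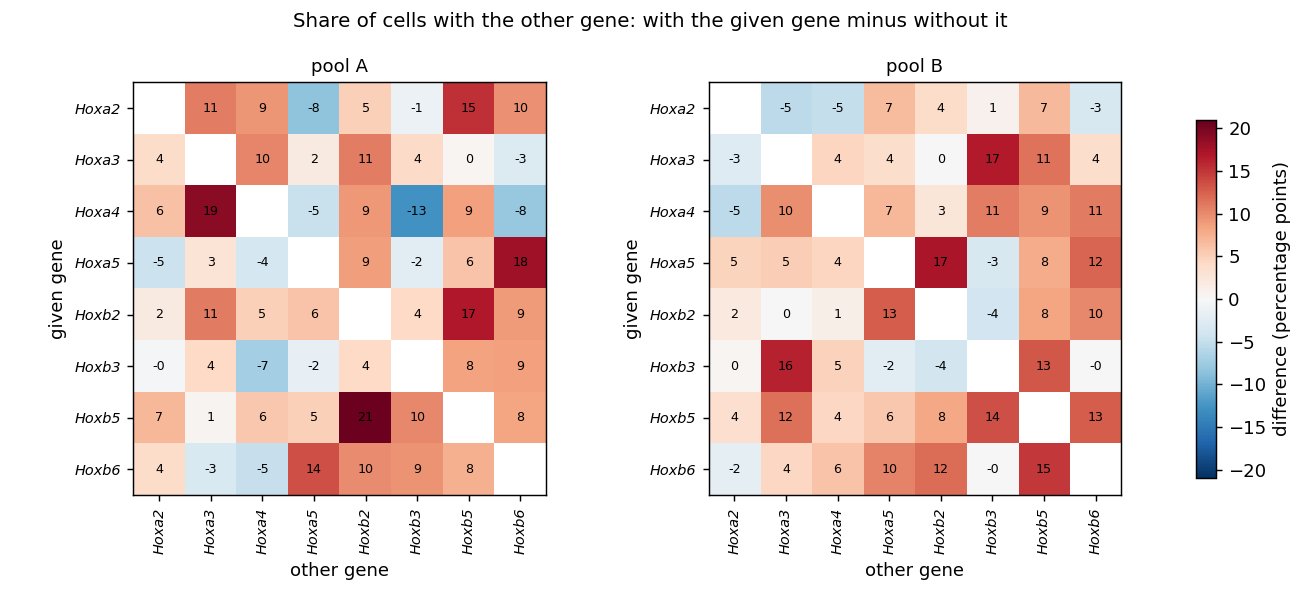
Difference in percentage points (colour and digits) between the share of SMC-like cells with a count of the other gene (columns) among cells with the given gene (rows) and among cells without it, for 8 Hox genes in pool A and pool B. Hoxa5 and Hoxb6 are positive in both pools (10.5 to 17.8 points), while Hoxb2 and Hoxb3 change sign between pools.

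Hoxb2 and Hoxb3, which lie side by side, showed no steady relation. Hoxb3 had a count in 40.7% of cells with Hoxb2 and 36.6% of cells without it in pool A, and in 42.2% and 46.2% in pool B. Both share exonic bases with Hoxb3os, as given above. The paralogs Hoxa3 and Hoxb3 differed in pool B, with Hoxb3 in 50.3% of cells with Hoxa3 and 33.7% of those without, but by 4.02 points in pool A. With cells thinned to 50000 counts the excess was 1.81 points in pool A and -0.886 in pool B. Cells with Hoxa3 were the deeper ones, with a median of 303370 counts against 273288 in pool A and 340234 against 298512 in pool B.

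Of the ordered pairs, 3 were over 10 points higher in both pools: Hoxb6 given Hoxa5, Hoxa5 given Hoxb6, and Hoxb3 given Hoxb5. Hoxb6 had a count in 46.8% of cells with Hoxa5 (33.98 to 59.9%) and 28.9% of those without in pool A, and in 37.5% (24.9 to 51.5%) and 25.3% in pool B. Thinned to equal depth the excess was 14.5 and 29.8 points. For Hoxb3 given Hoxb5 it was -1.08 and -2.07 points after thinning, so that pair did not hold. Hoxb5 and Hoxb6, neighbours in cluster B, held in direction: Hoxb6 was in 38.8% of cells with Hoxb5 against 30.5% without it in pool A and 35.7% against 23.1% in pool B, and the excess was 8.18 and 21.7 points after thinning.

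Pairs among the rarer members of groups 6 to 8 were looked at after their values were seen and are given as such. Hoxb6 was in 54.8% of the 42 cells with Hoxb7 and 29.03% of the others in pool A, and in 8 of 20 cells and 26.9% of the others in pool B. Hoxa7 was in 9 of 18 cells with Hoxb8 in pool A and 2 of 9 in pool B, against 11.4% and 2.45% of cells without Hoxb8. Cells with a high numbered member of cluster B nearly always had a lower one. At least 1 lower member of cluster B had a count in 39 of 42 and 19 of 20 cells with Hoxb7 and in all 18 and 9 cells with Hoxb8, but also in 84.7% and 89.7% of cells without Hoxb7. The next lower gene was often missing, with Hoxb7 in 16.7% and 22.2% of cells with Hoxb8 and Hoxb4 in 13.8% and 6.12% of cells with Hoxb5.

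Other genes of the Hox clusters were counted in the same cells. Of 41 further annotated genes within the spans of the members, 10 passed the filter between SMC-like and fibroblast-like cells. edgeR called none of these 10, none had an unadjusted p under 0.05, and DESeq2 called none. Of all genes tested edgeR called 4.22% in this comparison. All 10 had a positive log2 fold change, as had 4899 of all 8500 genes tested. The median of the 10 was 0.81, beside 0.23 over all genes tested. Hoxb3os had a count in 77.03% of SMC-like cells (mean of 2 pools), a larger share than any member, at 70.7 ± 5.18 CPM (SD, n = 2). Hoxaas2, which overlaps exons of Hoxa3, had a count in 51.6%, and Hoxb5os in 26.5%. Between SMC-like and endothelial-like cells edgeR called 1 of 12, beside 7.14% of all genes tested. The gene called was the antisense gene Hoxd3os1 of cluster D (edgeR, adjusted p = 0.0477). It stood at 6.89 ± 2.65 CPM in endothelial-like and 0.0118 ± 0.00013 CPM in SMC-like cells. The median of those 12 was 1.94 beside 0.90 over all genes. Between fibroblast-like and endothelial-like cells edgeR called 0 of 5, beside 3.02% of all genes tested. Of the 5, 1 had an unadjusted p under 0.05 in edgeR, DESeq2 called none, and the median was 1.43 beside 0.32.

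Hox proteins bind DNA together with partners of the TALE family, and these were present in SMC-like cells. Meis1 had a count in 45.98% of cells (38.9 ± 2.80 CPM, n = 2 pools) and Meis3 in 40.4% (43.6 ± 1.95 CPM). edgeR called none of 11 TALE genes against fibroblast-like cells, where 1 had an unadjusted p under 0.05 and DESeq2 called 1. It called 1 of 11 against endothelial-like cells, Tgif1, a TALE repressor, which was lower in SMC-like cells (20.1 ± 10.2 against 131.2 ± 13.02 CPM, adjusted p = 0.0413). In that comparison 3 of 11 had an unadjusted p under 0.05, and DESeq2 called 3 higher and 1 lower in SMC-like cells. Between fibroblast-like and endothelial-like cells it called 0 of 9, with 2 at an unadjusted p under 0.05 and 2 called by DESeq2. Of all genes tested edgeR called 4.22%, 7.14% and 3.02% in the 3 comparisons, and 17.9%, 16.5% and 15.8% had an unadjusted p under 0.05. The median log2 fold change of the list was 0.26, 1.64 and 1.56, beside 0.23, 0.90 and 0.32 over all genes tested.

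Retinoic acid switches on the 3′ Hox genes in the embryo. Of 22 genes of its pathway and of upstream regulators, 14, 13 and 11 were tested in the 3 comparisons. DESeq2 called 0 higher and 4 lower in the first, 1 and 1 in the second, and 3 and 0 in the third. By edgeR it was 0 higher and 1 lower, 1 and 1, and 2 and 0, beside 4.22%, 7.14% and 3.02% of all genes tested. Unadjusted in edgeR, 28.6%, 23.1% and 27.3% had p under 0.05, beside 17.9%, 16.5% and 15.8% of all genes tested. Aldh1a1, an enzyme that makes retinoic acid, was lower in SMC-like (2.32 ± 1.42 CPM) than in fibroblast-like cells (291.5 ± 62.6 CPM, adjusted p = 0.00143), and higher in fibroblast-like than in endothelial-like cells (0.743 ± 0.132 CPM, adjusted p = 0.00841). Egr2, a hindbrain regulator of Hoxa2 and Hoxb2, was higher in endothelial-like (90.6 ± 20.8 CPM) than in SMC-like cells (6.01 ± 6.11 CPM, adjusted p = 0.0213). The receptors Rarg and Rxra stood at 50.9 ± 7.01 and 35.3 ± 14.1 CPM in SMC-like cells. The list's median log2 fold change was -0.73, 1.42 and 2.16, beside 0.23, 0.90 and 0.32 over all genes tested.

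Chromatin regulators that keep Hox genes on or off, of the trithorax and Polycomb groups, did not pass the edgeR test in any of the 3 class comparisons. Of the 26, 26, 26 and 25 were tested, with 3, 1 and 0 at an unadjusted p under 0.05 and 2, 0 and 0 called by DESeq2. Of all genes tested edgeR called 4.22%, 7.14% and 3.02%, so few calls could be met in a list of this size. Unadjusted in edgeR, 17.9%, 16.5% and 15.8% of all genes had p under 0.05, and DESeq2 called 13.99%, 12.1% and 13.1%. Phc3 (150 ± 63.2 CPM), Cbx6 (93.6 ± 35.6 CPM) and Kmt2a (63.1 ± 20.9 CPM) had the highest CPM of the list in SMC-like cells, with no correction for length. The list's median was -0.25, 0.31 and -0.04, beside 0.23, 0.90 and 0.32 over all genes tested.

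Some other transcription factors of regional identity passed the edgeR test between classes, where no Hox gene did. Of 46, 32 were tested against fibroblast-like cells, and edgeR called 5, all lower in SMC-like cells, beside 4.22% of all genes tested. Meox1 (0.0944 ± 0.0510 against 55.3 ± 1.82 CPM, adjusted p = 0.00670) and Meox2 (0.0999 ± 0.0239 against 49.5 ± 10.9 CPM, adjusted p = 0.00767) are somite and limb muscle regulators. Tcf21 (adjusted p = 0.0312) marks the epicardial and fibroblast lineage, and Twist2 (5.55 ± 3.002 against 81.6 ± 5.08 CPM, adjusted p = 0.0240) mesenchyme. Prrx1 (adjusted p = 0.0108) is a limb and head mesenchyme factor. Unadjusted in edgeR, 37.5% of these 32 had p under 0.05, beside 17.9% of all genes tested, and DESeq2 called 2 higher and 11 lower. Against endothelial-like cells edgeR called 4 of 32 higher and 4 lower in SMC-like cells, the latter being Meox2, Tcf15, Meox1 and Tbx3. Of all genes tested 7.14% were called. Unadjusted, 43.75% of the 32 had p under 0.05, beside 16.5%, and DESeq2 called 9 higher and 5 lower. Tcf15 had 479.7 ± 88.97 CPM in endothelial-like and 0.614 ± 0.684 in SMC-like cells. Between fibroblast-like and endothelial-like cells edgeR called 2 of 23, Prrx1 higher and Tcf15 lower, beside 3.02% of all genes tested. Unadjusted, 56.5% of the 23 had p under 0.05, beside 15.8%, and DESeq2 called 10 higher and 2 lower. Osr1 (406 ± 54.2 CPM), Foxc2 (124.03 ± 32.8 CPM) and Gata6 (99.4 ± 56.6 CPM) had the highest CPM of the list in SMC-like cells. The list's median was -0.58, 4.06 and 4.17, beside 0.23, 0.90 and 0.32 over all genes tested.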

How the data were processed

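Pool A has 367 cells and pool B 308. The values are whole-number read counts per gene and cell, which the authors deposited as 1 table. Bcl2fastq, Bowtie2 and featureCounts are among the tools named per the submitters' processing notes, with GRCm38 as the build, and no step is recorded for duplicates or strand. Identifiers were named from GENCODE M21, and the 512 without a symbol held 0.217% of counts. A hash of the identifier put 23181 identifiers into clustering and 23299 into testing, the Hox genes among the latter. Tests used the cells that formed the clusters and are not independent of them. Leiden clustering (scanpy 1.11.5, resolution 0.5, seed 0) gave the classes, named from 84 markers. No doublet caller was run, and a minimum of 1000 genes and 20000 counts removed 0 cells. Counts summed per class and pool were tested with edgeR 4.0.16 (TMM, filterByExpr, pool as a block, Benjamini-Hochberg threshold 0.05). DESeq2 1.42.0, no filter, other resolutions, no block, shallow cells left out and higher count minimums were alternatives. Scripts were tested on simulated data. With 2 pools a p-value measures only the spread between these pools. Classes of a pool share mice, and their deviations correlated (r = 0.195, 0.153 and 0.0831 in the 3 class comparisons). Values are printed for members found in 5% or more of the SMC-like (smooth muscle-like) or fibroblast-like cells of both pools and for members called by a test. Of the other lists, up to 4 called genes by size of fold and the 3 with the highest level in SMC-like cells are named, and a few such genes and sequences are not reported here. Hoxb4, Hoxb8, Hoxb9, Hoxd8 and Hoxd9 fall outside this and were added after their values were seen. All members and lists were chosen with earlier results of these data known.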

Additional observations from a re-analysis of the deposited data

How the results depend on the processing

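No Hox member was called by edgeR in any comparison, and this changed with the tool and the filter. DESeq2 called 3 members in SMC-like (smooth muscle-like) against fibroblast-like cells, 2 in SMC-like against endothelial-like, 3 in fibroblast-like against endothelial-like, and 1 in the unnamed cluster against SMC-like cells. Without the filter on low counts edgeR called 1 member in the first. Of all genes tested 4.22%, 7.14% and 3.02% were called in these 3 class comparisons. The share was 13.99%, 12.1% and 13.1% by DESeq2, and 5.99% in the first and 3.995% in the last without the filter, which tests more genes. At resolution 1.0 it was 10.2%, 4.27% and 1.36%, and at resolution 0.25 5.22% in the last. With all 3 classes in 1 fit it was 1.42%, 5.33% and 4.93%. With no replicate block (the pairing of classes within a pool left out) the second share was 2.47%, and the block changed no call of a Hox member. For the SMC-like clusters 0 became 0.0615% by DESeq2 and 0.0388% without the filter. For the unnamed cluster 0 became 4.47% by DESeq2, 1.04% without the filter and 0.218% without shallow cells. Directions turned in 3 cases: against fibroblast-like cells Hoxc4 was at 2.13 and Hoxc5 at 8.83 at resolution 0.25, and Hoxc4 between fibroblast-like and endothelial-like cells at -6.61 at resolution 1.0. The cause was not tested. The mean of 3.20 members per SMC-like cell was 2.23 with 2 or more counts asked for, 1.87 with 5 or more and 2.09 after thinning (3.14 to 3.25 in single pools). The share with a highest group of 5 or above, 68.1%, was 43.9%, 39.8% and 46.3% (66.5 to 69.7% in single pools). The median excess over neighbours, 5.17 points, was 3.51, 2.06 and 1.90 points (4.47 to 5.87 in single pools). With 1 pool left out the class tests have no residual spread and give values only. The 7 and 14 endothelial-like cells limit every comparison with that class.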
